A study of Mus musculus with 12 samples.

Results

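Serpins are a family of proteins that share 1 fold, and most of them block serine or cysteine proteases. The family is described here as the study's count table holds it: 62 gene symbols made of Serpin, a clade letter from a to i, a number and at most 1 further letter, out of 23955 symbols. Of these, 39 had at least 10 counts summed over the 12 libraries and are the named members below, 22 had 1 to 9 counts and 1 (Serpina12) had none. The named members were chosen by their sum of counts, so their presence above 10 counts is a description. Just inside that limit were Serpini2 with 10 counts and Serpinb10 and Serpinb1b with 11 each, and just outside it Serpinb3c and Serpinb12 with 9 each.

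The RNA came from bone marrow mesenchymal stem cells of female C57BL/6 mice, stromal cells that can become fat cells, at passages 9 to 10. The TBT group received 50 nM tributyltin, an organotin compound that activates the retinoid X receptors and PPARγ. The ROSI group received 500 nM rosiglitazone, a drug ligand of PPARγ, and the DMSO group received 0.1% of the solvent. All groups were kept for 14 days with 0.5 mM isobutylmethylxanthine, 1 uM dexamethasone (a glucocorticoid) and 5 ug/mL insulin, and each group had 4 libraries. The stem cells were a commercial stock, and whether the 4 libraries of a group were separate cultures is not given, so the p-values below take these libraries as they are, and their spread may be technical only.

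An inhibitory serpin offers a protease an exposed stretch near its carboxyl end, the reactive centre loop. The protease cuts the loop, the serpin snaps into another shape, and both proteins stay locked together and are cleared. The loop sequence sets which proteases are caught, so near-copies with different loops can have different targets. Some serpins inhibit nothing: Serpinh1 folds collagen and Serpinf1 is a secreted signal. In fat and stromal tissue, serpins are known as regulators of plasmin formation, complement and matrix turnover.

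Library totals ran between 4027152 and 7474654 counts. Reads on olfactory and other sensory receptor genes, silent in most tissues, summed to 110.2 to 191 CPM (counts scaled to 1000000 per library, here without scaling factors) in TBT, 59.1 to 73.6 in ROSI and 291 to 769 in DMSO. Rn45s (ribosomal RNA precursor) made up 0.399%, 0.500%, 0.670% and 6.85% of the counts of the TBT libraries, 1.36% to 9.27% in ROSI and 2.64% to 6.18% in DMSO, so TBT replicates 1 to 3 lay below all other libraries. Stromal markers (10 genes) summed to 2264 to 2656 CPM in TBT, 1289 to 1658 in ROSI and 3262 to 4131 in DMSO, and adipocyte markers (9 genes) to 2235 to 3363, 4399.9 to 5819.9 and 1043 to 2029.9 CPM in TBT, ROSI and DMSO. Fewer cells of a type and less RNA per cell cannot be told apart in such bulk libraries. Of the markers of other cells, 9 macrophage genes summed to 19.7 to 35.7 CPM in TBT, 19.7 to 30.8 in ROSI and 25.6 to 30.2 in DMSO. Neutrophil markers summed to 0.386 to 2.14 CPM in TBT, 0.632 to 2.51 in ROSI and 0.713 to 3.04 in DMSO, and T and NK cell markers to 1.09 to 2.32, 0.948 to 2.81 and 2.38 to 4.43 CPM. Mast cell markers summed to 0 to 0.217 CPM in TBT, 0 to 0.259 in ROSI and 0.790 to 4.99 in DMSO, higher in every DMSO library than in any treated one, with Tpsb2 at 0 in all 3 groups. Hepatocyte markers summed to 118 to 203 CPM in TBT, 160.0 to 277 in ROSI and 148 to 182 in DMSO, with Fgg at 0 in all 3. Endothelial markers summed to 5.21 to 8.77, 3.26 to 5.21 and 8.08 to 10.5 CPM in TBT, ROSI and DMSO, and erythroid markers to 7.83 to 16.4, 11 to 12.8 and 12.6 to 24.2 CPM. The part of these shifts in the serpin results was not tested.

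CPM from here on uses library sizes after TMM scaling and is given as mean ± SD over n = 4 libraries unless single libraries are listed. Serpin reads summed to 1053 ± 133 CPM in TBT, 1051 ± 109 in ROSI and 1672 ± 187 in DMSO. They were 0.101% ± 0.0154, 0.106% ± 0.00864 and 0.171% ± 0.0213 of all counts in TBT, ROSI and DMSO (SD, n = 4 each). The 5 members with the most counts held 86.8% of serpin counts. On CPM per kilobase of exon, averaged over all 12 libraries, Serpina3n came first at 136, followed by Serpinf1 at 70.2, Serpine2 at 55.5, Serping1 at 43.1 and Serpinh1 at 35.7. Serpina3m followed at 11.1 and Serpinb9 at 7.0, and the other named members were lower.

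Of the 39 named members, 21 passed the filter on low counts and were tested with edgeR's quasi-likelihood test, with p-values Benjamini-Hochberg adjusted over all 12323 tested genes and a threshold of 0.05. In TBT against DMSO, 12 of the 21 were called, 3 higher and 9 lower, where 15.2% of all tested genes were called (8.22% higher and 7.03% lower). In ROSI against DMSO, 7 were called, 1 higher and 6 lower, where 22.6% of all genes were called (10.0% higher and 12.6% lower). In TBT against ROSI, 10 were called, 3 higher and 7 lower, where 23.9% of all genes were called (12.8% higher and 11.1% lower). The median log2 fold change of the 21 was -0.43, -0.21 and -0.37 in these 3 comparisons, against -0.01, 0.01 and 0.02 over all tested genes. For the 13 tested serpins outside the Serpina3 cluster, which is described below, the medians were -0.04, -0.16 and 0.12. Among these 13, 3 were called higher and 1 lower in TBT against DMSO. The calls were 1 higher and 3 lower in ROSI against DMSO, and 3 higher and 0 lower in TBT against ROSI. A gene can pass the filter through the group where it is high, as Serpinb9c and Serpina3i could, so these counts and medians are descriptions. With upper-quartile factors or plain library totals the TBT against DMSO calls were 1 higher and 9 lower. Over all genes, that comparison had 1013 higher and 866 lower calls, 748 and 1143 with upper-quartile factors, and 621 and 1269 with library totals, which shifted the median of all genes to -0.11. In TBT against ROSI, all genes had 1575 higher and 1365 lower calls, and 1130 and 1745 with library totals. Any pair of these comparisons shares 1 group of libraries, so their values are given side by side and are not independent.

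**Figure D1:**
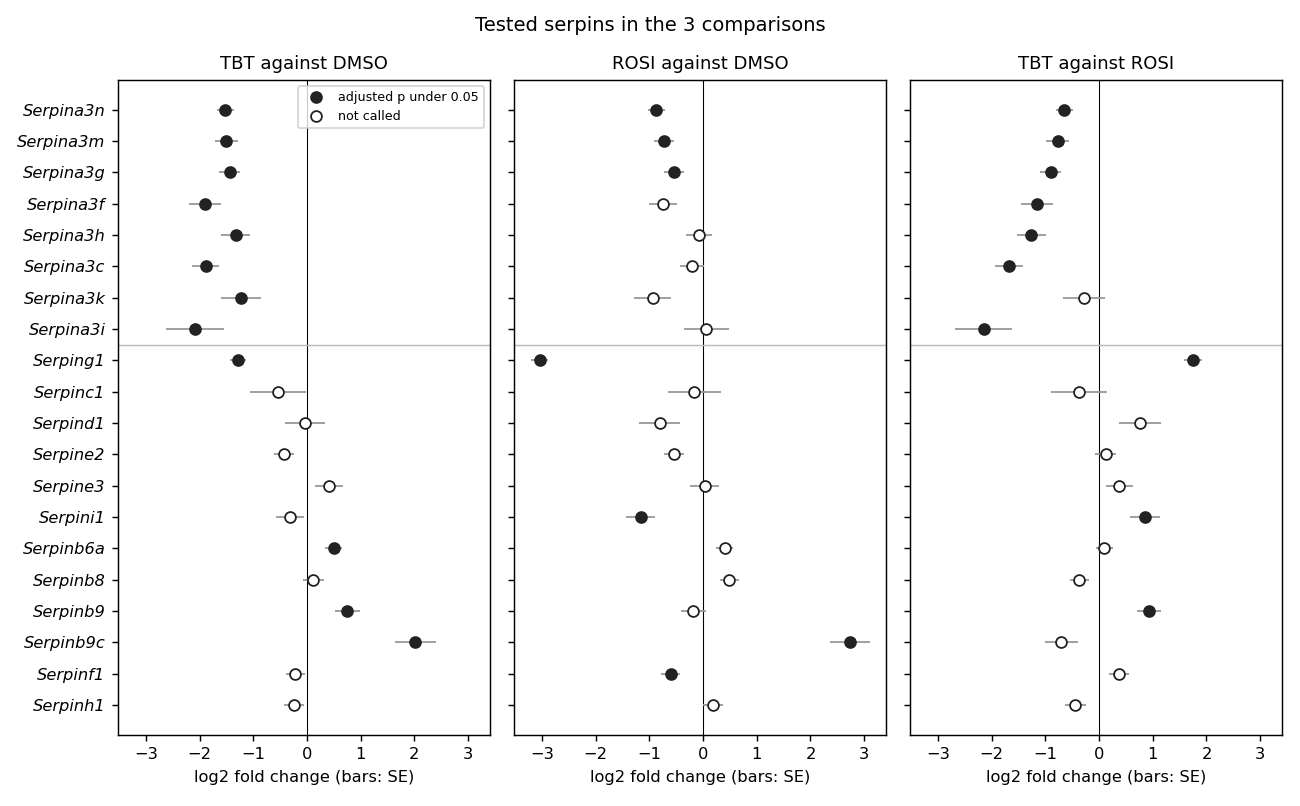
Log2 fold change of 20 tested serpins in TBT against DMSO, ROSI against DMSO and TBT against ROSI, with bars of 1 SE; filled points passed the adjusted p of 0.05 and open points did not. The grey line separates the 8 Serpina3 genes, all filled and left of 0 in TBT against DMSO, from the 12 others drawn.

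The Serpina3 cluster is a row of near-copies on mouse chromosome 12, where humans have a single gene, SERPINA3 (alpha-1-antichymotrypsin, an acute-phase inhibitor of cathepsin G). Of its 11 symbols, 9 were named, 8 were tested, Serpina3j (48 counts) was named but below the filter, and Serpina3a and Serpina3b had 5 counts each. Serpina3h is annotated as a transcript without a coding frame in GENCODE vM21. All 8 tested members were called lower in TBT against DMSO, 3 in ROSI against DMSO, and 7 in TBT against ROSI. Of all tested genes, 7.03%, 12.6% and 11.1% were called lower in these comparisons. The median log2 fold changes of the 8 were -1.51, -0.64 and -1.03. The Serpina3k call in TBT against DMSO held in 13 of 21 alternatives. Summed over the cluster, the level was 182 ± 29.2 CPM in TBT, 299.9 ± 47.4 in ROSI and 526 ± 87.3 in DMSO (SD, n = 4 each). The direction in TBT against DMSO was the same for all 8 in every alternative that could fit them.

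The reactive loops of the tested coding members are shown because the copies matched Serpina3n less there than over the whole coding sequence. Coding sequences of Serpina3c, f, g, i, k and m matched Serpina3n at 82.9% to 85.3% of aligned bases, and their loop stretches at 63.1% to 76.3%. For Serpina3g only 651 coding bases were aligned. Serpina3a, b and j, whose loops were not compared, matched at 78.5% to 81.5% over the coding sequence. The lines give the coding strand, 5′ to 3′, from GENCODE vM21 on GRCm38. Lower case marks 12 bases at each end, and capitals mark the stretch between them that holds the loop. The stretches were found by a residue pattern at these ends, so the likeness of the ends follows from the search. Serpina3n, m, g and k lie on the plus strand, all in exon 5 of the transcripts used, at chr12:104413448-104413540, chr12:104393769-104393861, chr12:104241072-104241164 and chr12:104345269-104345355. Serpina3c lies on the minus strand in exon 5 at chr12:104147304-104147387. Serpina3f and Serpina3i lie on the plus strand in exon 6, at chr12:104220245-104220340 and chr12:104268480-104268572.
Serpina3n: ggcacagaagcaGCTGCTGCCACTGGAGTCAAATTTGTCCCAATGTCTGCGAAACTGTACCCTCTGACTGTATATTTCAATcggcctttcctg
Serpina3m: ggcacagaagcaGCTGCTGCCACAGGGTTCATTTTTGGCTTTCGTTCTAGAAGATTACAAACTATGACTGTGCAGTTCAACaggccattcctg
Serpina3g: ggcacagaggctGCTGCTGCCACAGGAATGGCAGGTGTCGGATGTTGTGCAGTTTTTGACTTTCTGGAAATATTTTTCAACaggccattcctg
Serpina3k: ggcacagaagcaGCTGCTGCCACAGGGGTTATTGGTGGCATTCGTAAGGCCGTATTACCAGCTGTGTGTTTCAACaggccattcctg
Serpina3c: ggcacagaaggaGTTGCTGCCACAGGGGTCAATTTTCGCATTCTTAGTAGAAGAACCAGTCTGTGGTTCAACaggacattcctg
Serpina3f: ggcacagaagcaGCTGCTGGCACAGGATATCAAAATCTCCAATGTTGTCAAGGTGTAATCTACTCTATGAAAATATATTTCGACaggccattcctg
Serpina3i: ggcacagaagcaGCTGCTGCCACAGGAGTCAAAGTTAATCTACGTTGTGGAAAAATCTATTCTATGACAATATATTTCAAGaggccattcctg

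The reads were 50 bases long, so a read can be placed on 1 gene only where a stretch of that length differs between copies. Of all 50-base windows of the transcript, 6.75% in Serpina3n, 4.25% in Serpina3c, 9.00% in Serpina3f, 12.0% in Serpina3i, 13.7% in Serpina3k, 15.4% in Serpina3g, 19.1% in Serpina3m and 24.4% in Serpina3h also occur in another serpin. How the authors counted such reads is not given in the sources used here, and windows that differ by 1 or a few bases were not counted as shared. Values of the cluster members, above all the low ones, are therefore uncertain as values of single genes.

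Serpina3n is an inhibitor of granzyme B and leukocyte elastase and held most of the cluster's reads. It had 159, 137, 190.4 and 133 CPM in the TBT libraries (replicates 1 to 4), 258, 187, 249 and 279 CPM in the ROSI libraries and 472, 533, 363 and 403 CPM in the DMSO libraries. Both treated groups lay below every DMSO library, and the highest TBT library lay just above the lowest ROSI library. The log2 fold change was -1.52 ± 0.16 in TBT against DMSO (SE, edgeR adjusted p = 2.6e-05), or 2.86-fold lower. It was -0.87 ± 0.16 in ROSI against DMSO (adjusted p = 0.00068) and -0.65 ± 0.16 in TBT against ROSI (adjusted p = 0.008).

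Serpina3m, the second in abundance, had 9.65, 9.84, 11.3 and 10.2 CPM in TBT, 19.6, 11.2, 19.4 and 20.1 in ROSI and 29.0, 35.8, 21.4 and 30.8 in DMSO. The groups stood in the same order, and the single low ROSI library (replicate 2) fell within the TBT range. The log2 fold changes were -1.5 ± 0.21 in TBT against DMSO (edgeR adjusted p = 0.00024), -0.73 ± 0.19 in ROSI against DMSO (adjusted p = 0.011) and -0.77 ± 0.21 in TBT against ROSI (adjusted p = 0.014).

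Serpina3g (Spi2A) acts inside cells and blocks lysosomal cathepsins that leak into the cytosol. Its libraries held 5.18, 6.75, 6.85 and 4.78 CPM in TBT, 9.03, 10.3, 12.3 and 12.2 in ROSI and 14.7, 17.5, 13.5 and 18.5 in DMSO. No library of one group overlapped another group. It fell by 1.44 ± 0.20 on the log2 scale in TBT against DMSO (edgeR adjusted p = 0.00025) and by 0.90 ± 0.20 in TBT against ROSI (adjusted p = 0.0042). The fall of 0.54 ± 0.18 in ROSI against DMSO passed narrowly (adjusted p = 0.042) and was lost without any 1 of DMSO replicates 1, 2 or 4 or of the 4 ROSI replicates (adjusted p 0.059 to 0.13).

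The values of Serpina3c and Serpina3h in ROSI lay near those in DMSO, as did those of the less abundant Serpina3i, given further below. Serpina3c had 1.79, 2.12, 1.93 and 2.39 CPM in TBT, 6.02, 5.53, 7.11 and 7.82 in ROSI and 8.32, 9.36, 7.46 and 5.85 in DMSO, so the TBT libraries stood apart below the other 8. Its log2 fold change was -1.89 ± 0.26 in TBT against DMSO (edgeR adjusted p = 0.00022), -1.68 ± 0.26 in TBT against ROSI (adjusted p = 2e-04) and -0.21 ± 0.22 in ROSI against DMSO (adjusted p = 0.56). Serpina3h averaged 3.66 CPM in TBT, 8.75 in ROSI and 9.36 in DMSO, with log2 fold changes of -1.33 ± 0.27 in TBT against DMSO (edgeR adjusted p = 0.0046), -1.26 ± 0.27 in TBT against ROSI (0.003) and -0.07 ± 0.24 in ROSI against DMSO (0.88). Whether these genes responded to ROSI differently from Serpina3n was not tested.

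Serpina3f averaged 3.33 CPM in TBT, 7.46 in ROSI and 12.6 in DMSO. It fell by 1.90 ± 0.29 on the log2 scale in TBT against DMSO (edgeR adjusted p = 0.00067) and by 1.16 ± 0.30 in TBT against ROSI (0.011). In ROSI against DMSO the log2 value was -0.74 ± 0.26 (adjusted p = 0.053), and it passed without DMSO replicate 4, ROSI replicate 3 or TBT replicate 4 (adjusted p 0.026 to 0.039). Serpina3i, among the least abundant, had 0.894, 0.386, 1.28 and 0 CPM in TBT, 1.5, 3.32, 4.27 and 2.21 in ROSI and 3.09, 3.51, 1.93 and 3.00 in DMSO. Its log2 fold change was -2.09 ± 0.54 in TBT against DMSO (edgeR adjusted p = 0.017, and 0.054 without TBT replicate 2) and -2.15 ± 0.53 in TBT against ROSI (0.0084). In ROSI against DMSO Serpina3i was at 0.06 ± 0.42 (adjusted p = 0.95). Serpina3k, a kallikrein-binding protein, averaged 1.39 CPM in TBT, 1.73 in ROSI and 3.39 in DMSO. It was called in TBT against DMSO (log2 -1.23 ± 0.37, edgeR adjusted p = 0.032), a call lost without any 1 of DMSO replicates 1, 2 or 4 or TBT replicates 1 to 3 (adjusted p 0.05 to 0.096). Serpina3k in ROSI against DMSO was at -0.94 ± 0.35 (adjusted p = 0.061, and 0.032 without DMSO replicate 3), and in TBT against ROSI at -0.28 ± 0.39 (0.63).

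**Figure D2:**
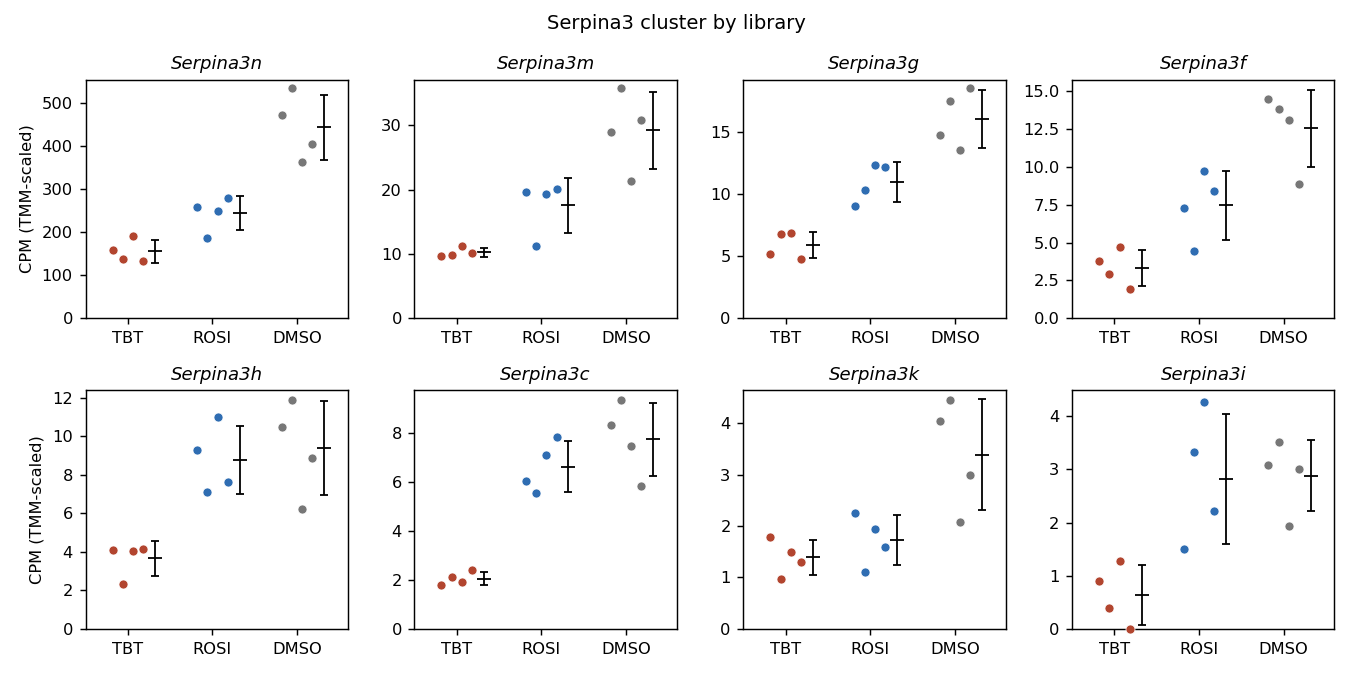
CPM (TMM-scaled) of the 8 tested Serpina3 genes in each library of TBT, ROSI and DMSO, with the mean and SD of 4 libraries beside the points. The means of all 8 genes step up through TBT, ROSI and DMSO, with ROSI near DMSO for Serpina3c, h and i. Serpina3c sits at 1.79 to 2.39 CPM in TBT and between 5.53 and 9.36 CPM in the other 8 libraries.

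The make-up of the cluster is given by each member's share of its counts. Serpina3n held 84.8% ± 0.817 of the cluster's counts in TBT, 81.0% ± 1.54 in ROSI and 84.2% ± 0.541 in DMSO (SD, n = 4 each). Serpina3c held 1.16% ± 0.301 in TBT, 2.22% ± 0.208 in ROSI and 1.48% ± 0.214 in DMSO, and Serpina3h 2.02% ± 0.509, 2.94% ± 0.517 and 1.76% ± 0.213. The ROSI libraries (1.92% to 2.40%) lay above all TBT and DMSO libraries for Serpina3c (0.867% to 1.51% and 1.21% to 1.73%). The share of Serpina3m was 5.70% ± 0.668 in TBT, 5.79% ± 0.635 in ROSI and 5.56% ± 0.620 in DMSO. These shares were not tested.

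**Figure D3:**
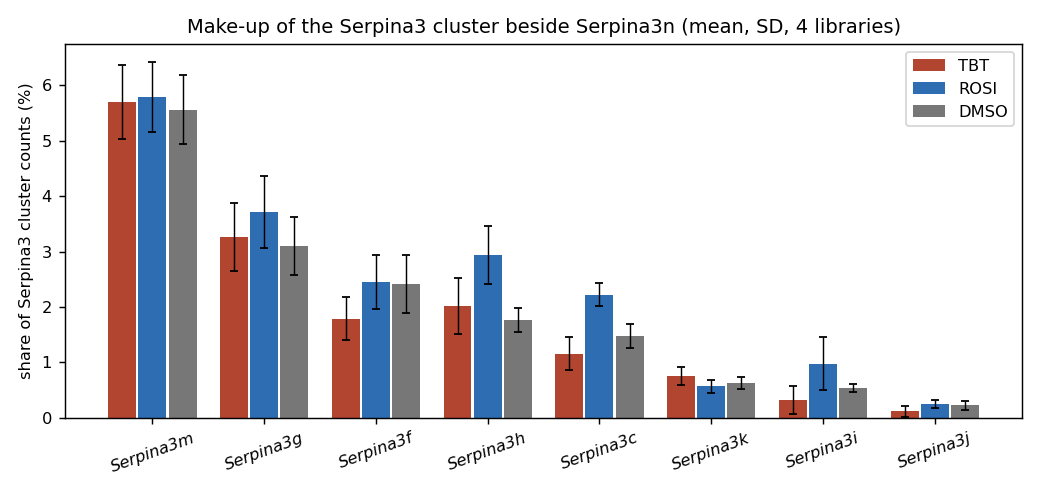
Share of all Serpina3 cluster counts, in percent, taken by each named member other than Serpina3n, as the mean of 4 libraries with SD bars, for TBT, ROSI and DMSO. Every member drawn except Serpina3k takes its highest mean share in ROSI, where Serpina3n takes its lowest (81.0%). The ROSI means include 2.22% for Serpina3c, 2.94% for Serpina3h, 3.71% for Serpina3g and 5.79% for Serpina3m.

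Promoter windows from RefSeq, 250 bases before to 50 after the gene start on GRCm38.p6, were at hand for 52 of the 62 serpin symbols and 16 of the 21 tested ones. The windows of Serpina3n and Serpina3g are shown because these genes fell together. In capitals are a match to ACANNNTGT, the spaced half-sites of a glucocorticoid response element, in Serpina3n, and a match to TTCNNNGAA, the core of a STAT-bound element, in Serpina3g. Both motifs read the same on either strand. The first occurs in 6.85% of all 32851 promoter windows and in a window of 5 of the 16 tested serpins (Serpina3c, Serpina3f, Serpina3i, Serpina3n and Serpinb8). The second occurs in 8.30% of all windows and in 5 of the 16 (Serpina3f, Serpina3g, Serpina3i, Serpinb6a and Serpinb9c). All cultures had dexamethasone, so its effect is not among the comparisons, and a match describes letters only. The window of Serpina3n is chr12:104406458-104406757 and that of Serpina3g chr12:104235897-104236196, both on the plus strand.
Serpina3n: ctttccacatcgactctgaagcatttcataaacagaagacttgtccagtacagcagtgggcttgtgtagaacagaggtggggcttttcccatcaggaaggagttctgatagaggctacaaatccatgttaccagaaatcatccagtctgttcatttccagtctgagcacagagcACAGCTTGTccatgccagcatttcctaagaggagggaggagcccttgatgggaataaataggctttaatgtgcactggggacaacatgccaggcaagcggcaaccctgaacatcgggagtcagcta
Serpina3g: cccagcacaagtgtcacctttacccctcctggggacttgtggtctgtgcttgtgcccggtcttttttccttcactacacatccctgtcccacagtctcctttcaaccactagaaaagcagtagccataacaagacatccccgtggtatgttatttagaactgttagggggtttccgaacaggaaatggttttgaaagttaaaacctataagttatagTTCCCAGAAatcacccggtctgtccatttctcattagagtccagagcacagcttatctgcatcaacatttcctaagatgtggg

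Outside the cluster, Serping1 changed most among the members that fell. It encodes C1 inhibitor, which holds the complement proteases C1r and C1s and plasma kallikrein in check. Its libraries had 80.6, 61.4, 91.8 and 87.9 CPM in TBT, 21.3, 23.5, 28.1 and 22.1 in ROSI and 185, 216, 159 and 226 in DMSO. The 3 groups did not overlap, with ROSI lowest and TBT between ROSI and DMSO. Serping1 fell in ROSI against DMSO by 3.04 ± 0.16 on the log2 scale, 8.21-fold lower (edgeR adjusted p = 1e-08). In TBT against DMSO it fell by 1.29 ± 0.15 (adjusted p = 5.8e-05), and in TBT against ROSI it was higher by 1.75 ± 0.16 (adjusted p = 1.3e-06). These 3 calls held in all 22 alternatives. Serping1 was thus higher in TBT than in ROSI, where 7 Serpina3 genes were lower. Its loop stretch, shown to set a distant family member beside those above, lies in exon 8 on the minus strand at chr2:84765643-84765720 (GRCm38).
Serping1: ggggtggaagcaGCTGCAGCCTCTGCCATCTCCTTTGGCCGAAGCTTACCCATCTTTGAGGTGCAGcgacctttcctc

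Serine proteases of complement, the targets of Serping1 among them, were lower against DMSO in most cases. Of 10 tested, 0 rose and 6 fell in TBT against DMSO, 0 rose and 7 fell in ROSI against DMSO, and 5 rose and 1 fell in TBT against ROSI, with median log2 fold changes of -0.50, -1.48 and 0.60. These 3 comparisons called 15.2%, 22.6% and 23.9% of all tested genes, the background of this and the later gene lists. In the counts of these lists, genes that rose or fell are the called ones only. C1s1, the protease C1s, averaged 492 ± 29.8 CPM in TBT, 156 ± 29.5 in ROSI and 683 ± 126 in DMSO, and fell by 2.13 ± 0.16 on the log2 scale in ROSI against DMSO (edgeR adjusted p = 1.7e-07). C1ra, the protease C1r, averaged 86.6 ± 14.8 CPM in TBT, 39.2 ± 6.07 in ROSI and 174 ± 34.1 in DMSO, and its log2 fold change was -1.0 ± 0.16 in TBT against DMSO (adjusted p = 0.00097). Their near-copies C1s2 and C1rb, whose reads may be shared with them, fell by 2.24 ± 0.15 in ROSI against DMSO and by 1.19 ± 0.20 in TBT against DMSO. Cfb, complement factor B, fell by 2.41 ± 0.17 in ROSI against DMSO. Cfd, factor D or adipsin, which mature fat cells secrete, fell by 1.90 ± 0.31 in TBT against DMSO.

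The other serpins of the clotting system were low. Serpinc1, antithrombin, averaged 1.63 CPM in TBT, 2.16 in ROSI and 2.38 in DMSO, and Serpind1, heparin cofactor II, 2.55, 1.43 and 2.57 CPM. Neither passed in any comparison, with log2 fold changes of -0.54 ± 0.52 and -0.04 ± 0.37 in TBT against DMSO and of -0.16 ± 0.49 and -0.81 ± 0.39 in ROSI against DMSO. Of 10 tested coagulation genes and thrombin receptors, 0 rose and 2 fell in TBT against DMSO, 0 rose and 6 fell in ROSI against DMSO, and 3 rose and 1 fell in TBT against ROSI (median log2 fold changes -0.04, -0.57 and 0.42). Gas6, a vitamin K-dependent ligand of TAM receptors, averaged 334 ± 77.2 CPM in TBT, 399.8 ± 9.28 in ROSI and 724 ± 65.7 in DMSO, with log2 falls of 1.12 ± 0.15 in TBT and 0.86 ± 0.15 in ROSI. Kng1, kininogen, fell by 2.54 ± 0.54 in TBT against DMSO. In ROSI against DMSO, Pros1 (protein S) fell by 0.78 ± 0.20 and F2r (the thrombin receptor PAR1) by 0.62 ± 0.16, while F2r was at 0.47 ± 0.16 in TBT against DMSO and was not called (edgeR adjusted p = 0.055).

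Of the serpins of plasminogen activation, Serpine2 was not called in any comparison with all libraries, and Serpini1 fell in ROSI against DMSO. Serpine3, set beside them by its clade letter only, was not called either. Serpine2, protease nexin 1, a cell-surface inhibitor of thrombin and urokinase, had the most counts of all serpins, at 378, 352, 394 and 566 CPM in TBT, 429, 535, 307 and 288 in ROSI and 618, 639.7, 527 and 488 in DMSO. In each treated group 1 library (TBT replicate 4 and ROSI replicate 2) lay within the DMSO range. Its log2 fold change was -0.43 ± 0.19 in TBT against DMSO (edgeR adjusted p = 0.14) and -0.54 ± 0.19 in ROSI against DMSO (0.053). Without TBT replicate 4 these passed at adjusted p = 0.017 and 0.018, and the ROSI value passed at 0.011 without ROSI replicate 2 and in 8 of 22 alternatives in all.

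Serpine3 averaged 5.55 CPM in TBT, 4.27 in ROSI and 4.16 in DMSO and was not called (log2 0.41 ± 0.26 in TBT and 0.03 ± 0.27 in ROSI against DMSO). Serpini1, neuroserpin, a tissue plasminogen activator inhibitor of the nervous system, had 8.22, 7.53, 5.99 and 4.35 CPM in TBT, 2.26, 3.32, 4.92 and 3.61 in ROSI and 10.2, 7.25, 8.98 and 6.32 in DMSO. It fell by 1.16 ± 0.27 in ROSI against DMSO (edgeR adjusted p = 0.0046) and was at -0.31 ± 0.26 in TBT against DMSO (0.42). In TBT against ROSI it was higher by 0.85 ± 0.28 (0.036), a call lost without any 1 of DMSO replicate 3, ROSI replicates 1, 2 or 4 or TBT replicates 1 to 3 (adjusted p 0.05 to 0.12).

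Of the plasminogen activators, the targets given above for Serpini1 and Serpine2, Plat was lower in both treated groups and Plau in ROSI. Of 9 tested genes of plasminogen activation, 0 rose and 5 fell in TBT against DMSO, 0 rose and 4 fell in ROSI against DMSO, and 3 rose and 1 fell in TBT against ROSI (median log2 fold changes -0.81, -0.88 and -0.12). Plat, tissue plasminogen activator, averaged 63.8 ± 11.1 CPM in TBT, 39.0 ± 6.83 in ROSI and 126 ± 16.8 in DMSO, with log2 falls of 0.98 ± 0.16 in TBT (edgeR adjusted p = 0.00081) and 1.69 ± 0.16 in ROSI (1.3e-06). Plau, urokinase, fell by 1.19 ± 0.16 in ROSI against DMSO, at 51.8 ± 6.26 CPM in TBT, 21.2 ± 2.93 in ROSI and 48.4 ± 8.80 in DMSO. Mmp2, a gelatinase, fell by 2.35 ± 0.25 in TBT and 2.14 ± 0.24 in ROSI. S100a10, a subunit of a cell-surface plasminogen receptor, fell by 1.43 ± 0.42 in TBT against DMSO.

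Among serpins without inhibitory action, Serpinf1 encodes PEDF, a secreted factor of mesenchymal and fat cells that restrains vessel growth. It had 131, 153, 171 and 222 CPM in TBT, 144, 146, 139 and 92.7 in ROSI and 169, 209, 167 and 244 in DMSO. All ROSI libraries were below all DMSO libraries, while the TBT libraries overlapped both. The fall in ROSI against DMSO was 0.60 ± 0.18 on the log2 scale (edgeR adjusted p = 0.025), and it was lost without DMSO replicate 2, DMSO replicate 4 or ROSI replicate 4 (adjusted p 0.061 to 0.098). In TBT against DMSO the log2 value was -0.22 ± 0.18 (0.42).

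Serpinh1 (HSP47), the collagen chaperone of the endoplasmic reticulum, had 56.3, 92.3, 68.2 and 79.2 CPM in TBT, 110.3, 132, 87.2 and 70.6 in ROSI and 68.0, 106, 87.3 and 88.5 in DMSO. The groups overlapped, and no comparison passed (log2 -0.24 ± 0.19 in TBT against DMSO, 0.19 ± 0.19 in ROSI against DMSO, and -0.44 ± 0.19 in TBT against ROSI). The last of these passed without ROSI replicate 4 (edgeR adjusted p = 0.036, against 0.11 with all libraries). Of 22 tested genes for collagen folding, 1 rose and 2 fell in TBT against DMSO, 2 rose and 4 fell in ROSI against DMSO, and 2 rose and 7 fell in TBT against ROSI (median log2 fold changes -0.16, -0.01 and -0.04). In TBT against DMSO, Ppib (cyclophilin B) fell by 0.92 ± 0.22 and Plod3 by 0.67 ± 0.15, and Plod2, like Plod3 a lysyl hydroxylase, rose by 0.73 ± 0.21. P4ha3, a prolyl hydroxylase subunit, fell in ROSI against DMSO by 2.21 ± 0.40, Crtap by 0.57 ± 0.13 and Creb3l1, a transcription factor, by 0.85 ± 0.28.

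The tested members called higher against DMSO were Serpinb9c in both treated groups, and Serpinb9 and Serpinb6a in TBT. All 3 are intracellular serpins of clade b. The TBT call of Serpinb9 held in 11 of 22 alternatives and that of Serpinb6a in 6 of 22. Other clade b members (Serpinb2, Serpinb5 and Serpinb3c) were called lower in a fit without the filter, given below. Serpinb9 protects cells from granzyme B, and Serpinb9c is a mouse relative of it. Serpinb9c had 3.57, 4.44, 3.21 and 4.35 CPM in TBT, 4.26, 6.79, 6.47 and 7.62 in ROSI and 0.713, 0.936, 1.66 and 0.316 in DMSO. Every treated library lay above every DMSO library. It rose by 2.73 ± 0.37 on the log2 scale in ROSI against DMSO, 6.61-fold (edgeR adjusted p = 3.8e-05), and by 2.02 ± 0.39 in TBT against DMSO, 4.07-fold (0.0033). With 2 to 12 counts per DMSO library, the size rests on single libraries: the log2 values were 3.33 in ROSI and 2.6 in TBT without DMSO replicate 3, and 2.41 in ROSI and 1.71 in TBT without DMSO replicate 4. TBT against ROSI was at -0.70 ± 0.30 (0.10). No 50-base window of the Serpinb9c transcript occurs in another serpin, and 0.380% of those of Serpinb9 do.

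Serpinb9 had 41.6, 35.9, 41.5 and 19.4 CPM in TBT, 12.8, 16.4, 22.8 and 20.3 in ROSI and 20.9, 24.6, 16.4 and 21.0 in DMSO. TBT replicates 1 to 3 stood above all other libraries, and TBT replicate 4 lay inside the range of DMSO and ROSI. It rose by 0.75 ± 0.23 in TBT against DMSO (edgeR adjusted p = 0.034), by 0.96 ± 0.18 without TBT replicate 4 (0.00062), and by 0.93 ± 0.23 in TBT against ROSI (0.0079). The call against DMSO was lost without any 1 of DMSO replicates 1, 3 or 4 or TBT replicates 1 to 3 (adjusted p 0.062 to 0.10). ROSI against DMSO was at -0.18 ± 0.23 (0.65). The loop stretches of both genes are shown because these genes were called higher against DMSO. Serpinb9 lies in exon 8 on the plus strand at chr13:33015699-33015785 and Serpinb9c in exon 7 on the minus strand at chr13:33150041-33150133 (GRCm38).
Serpinb9: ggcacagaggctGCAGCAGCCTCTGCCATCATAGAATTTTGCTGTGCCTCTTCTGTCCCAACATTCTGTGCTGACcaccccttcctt
Serpinb9c: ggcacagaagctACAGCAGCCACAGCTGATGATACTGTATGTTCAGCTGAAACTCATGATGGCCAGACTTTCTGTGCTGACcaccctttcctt

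Serpinb6a, whose human counterpart SERPINB6 inhibits cathepsin G, had 34.3, 39.4, 36.4 and 42.4 CPM in TBT, 32.8, 32.4, 42.4 and 34.5 in ROSI and 21.4, 36.0, 23.9 and 26.9 in DMSO. Of the DMSO libraries, replicate 2 lay inside the treated range. Its rise of 0.50 ± 0.16 in TBT against DMSO barely passed (edgeR adjusted p = 0.048). It was lost without any 1 of DMSO replicates 1, 3 or 4, ROSI replicates 1 to 4 or TBT replicates 1 to 3 (adjusted p 0.053 to 0.14). In ROSI against DMSO it was at 0.40 ± 0.16 (0.088, and 0.017 without DMSO replicate 2). Serpinb8, whose human counterpart inhibits furin, had 10.5, 8.30, 8.98 and 11.1 CPM in TBT, 13.8, 9.95, 13.3 and 13.2 in ROSI and 8.79, 7.72, 9.53 and 9.48 in DMSO. All ROSI libraries lay above all DMSO libraries, but the log2 value of 0.49 ± 0.18 missed the threshold (edgeR adjusted p = 0.062), and it passed without ROSI replicate 2 or TBT replicate 4 (0.037 and 0.046).

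**Figure D4:**
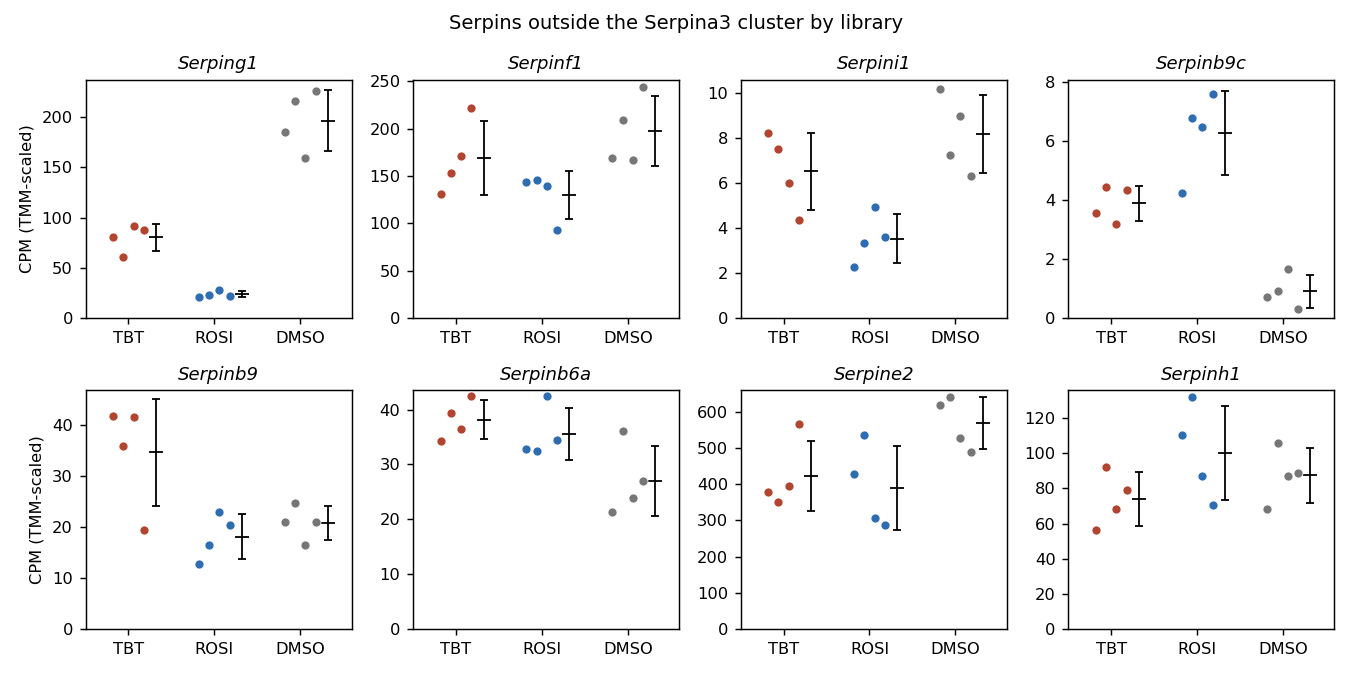
CPM (TMM-scaled) of 8 serpins outside the Serpina3 cluster in each library of TBT, ROSI and DMSO, with the mean and SD of 4 libraries beside the points and each axis starting at 0. Serping1 forms 3 separate levels with ROSI lowest (21.3 to 28.1 CPM), Serpinb9c is at 1.66 CPM or less in DMSO, and Serpinb9 shows TBT replicate 4 at 19.4 CPM below the other TBT libraries.

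Granule proteases and lysosomal cathepsins are proteases that intracellular serpins meet. Of 15 granule and chymotrypsin-like protease genes in the table, 1, Prss57, was tested, and it averaged 5.59 ± 1.29 CPM in TBT, 4.69 ± 1.17 in ROSI and 5.38 ± 1.72 in DMSO without a call. Of 11 tested lysosomal cathepsin genes, 0 rose and 3 fell in TBT against DMSO, 1 rose and 0 fell in ROSI against DMSO, and 1 rose and 2 fell in TBT against ROSI (median log2 fold changes -0.38, -0.24 and -0.18). Ctsd, an aspartic protease, fell by 0.71 ± 0.11 in TBT against DMSO (299 ± 24.7 CPM in TBT and 488 ± 34.3 in DMSO), Lgmn (legumain) by 0.78 ± 0.18 and Ctsa by 0.81 ± 0.21. Ctsl, cathepsin L, rose by 0.41 ± 0.12 in ROSI against DMSO. In that comparison Ctsb was at -0.39 ± 0.15 (edgeR adjusted p = 0.066) and Lgmn at -0.49 ± 0.18 (0.063).

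Of 10 tested membrane-bound and HtrA serine proteases, 2 rose and 2 fell in TBT against DMSO, 2 rose and 4 fell in ROSI against DMSO, and 4 rose and 1 fell in TBT against ROSI (median log2 fold changes -0.16, -0.41 and 0.26). Pcsk6, a proprotein convertase, averaged 14.8 ± 2.14 CPM in TBT, 25.1 ± 3.17 in ROSI and 7.16 ± 2.73 in DMSO and rose by 1.01 ± 0.23 in TBT and 1.77 ± 0.22 in ROSI. Htra3 rose by 1.53 ± 0.27 and Htra1 fell by 1.17 ± 0.24 in TBT against DMSO. Fap, fibroblast activation protein, fell by 2.61 ± 0.38 and Prss23 by 1.44 ± 0.17 in ROSI against DMSO.

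Receptors that bind or clear serpins moved in both directions. Of 14 tested, 2 rose and 4 fell in TBT against DMSO, 4 rose and 2 fell in ROSI against DMSO, and 2 rose and 4 fell in TBT against ROSI (median log2 fold changes -0.20, -0.11 and -0.27). Lrp4 averaged 16.0 ± 2.69 CPM in TBT, 6.35 ± 1.32 in ROSI and 35.2 ± 11.7 in DMSO, with log2 falls of 1.14 ± 0.22 in TBT and 2.45 ± 0.24 in ROSI. Sort1 (sortilin) and Pnpla2, the triglyceride lipase that binds PEDF, rose by 1.82 ± 0.18 and 1.98 ± 0.25 in ROSI against DMSO. Lrp1b fell by 2.45 ± 0.47 in TBT against DMSO.

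Of 14 tested protease inhibitors of other families, 0 rose and 3 fell in TBT against DMSO, 2 rose and 8 fell in ROSI against DMSO, and 5 rose and 2 fell in TBT against ROSI (median log2 fold changes -0.18, -0.96 and 0.37). The share called in either direction in TBT against DMSO, 3 of 14, was not far from the 15.2% of all tested genes. All 3 calls were falls, and 7.03% of all tested genes were called lower there. Itih2, a heavy chain of inter-alpha-trypsin inhibitor, averaged 64.0 ± 7.90 CPM in TBT, 30.3 ± 4.20 in ROSI and 98.3 ± 14.4 in DMSO, with log2 falls of 0.62 ± 0.14 in TBT and 1.69 ± 0.15 in ROSI. Of its relatives, Itih4 rose by 2.68 ± 0.34 and Itih5 fell by 1.89 ± 0.21 in ROSI against DMSO. Slpi, an elastase inhibitor, and Spink8 fell by 1.72 ± 0.43 and 0.82 ± 0.26 in TBT against DMSO. Levels of the fat-cell marker Fabp4 stand beside these values: 464 ± 158 CPM in TBT, 1163 ± 93.4 in ROSI and 147 ± 114 in DMSO. The 9 adipocyte markers, Fabp4 among them, did not all move alike. In TBT against DMSO 3 were called higher, 1 lower and 5 were not called, and in ROSI against DMSO 7 were called higher and 0 lower.

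The 18 named members below the filter were Serpina3j, Serpina10, Serpinb1a, Serpinb1b, Serpinb1c, Serpinb2, Serpinb5, Serpinb6b, Serpinb6c, Serpinb6d, Serpinb9b, Serpinb9d, Serpinb9e, Serpinb9f, Serpinb9g, Serpinb10, Serpinb11 and Serpini2. Serpinb9b was the most abundant of them with 98 counts, at 0.772 to 2.61 CPM in TBT, 0.647 to 1.58 in ROSI and 0.829 to 3.28 in DMSO. In the Serpinb9 family, Serpinb9e had 0.193 to 0.652 CPM in TBT, 0.632 to 2.26 in ROSI and 0.316 to 0.691 in DMSO, and 28.4% of its 50-base windows occur in another serpin. In a fit without the filter, Serpinb2 (plasminogen activator inhibitor 2, 1 count in TBT, 2 in ROSI and 19 in DMSO) was called lower in both treated groups. Serpinb5 (maspin, 0 counts in TBT and 12 in DMSO) and Serpina3j (4 counts in TBT and 26 in DMSO) were called lower in TBT. Serpinb3c, below 10 counts, was called lower in ROSI (0 counts in ROSI and 9 in DMSO).

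The lowest serpins had most of their reads in DMSO, the group with the most reads on sensory receptor genes. The 23 symbols below 10 counts had 14 counts over the TBT libraries, 16 over the ROSI libraries and 67 over the DMSO libraries, of which DMSO replicate 1 held 28. Sensory receptor genes reached 144 ± 40.3 CPM in TBT, 66.2 ± 5.43 in ROSI and 512 ± 215 in DMSO, on the TMM-scaled CPM of the plot of both. The part of such reads in the falls of low serpins was not tested. Serpina12, vaspin, a serpin first described in visceral fat of rats, had 0 of 65290948 counts, which allows up to 0.0459 CPM (3 counts over the 12 libraries, counting error only). Serpina6, the corticosteroid-binding globulin, and Serpina7, the thyroxine-binding globulin, had 5 counts each, and the Serpina1 genes (alpha-1-antitrypsin) had 1 to 4 counts each.

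**Figure D5:**
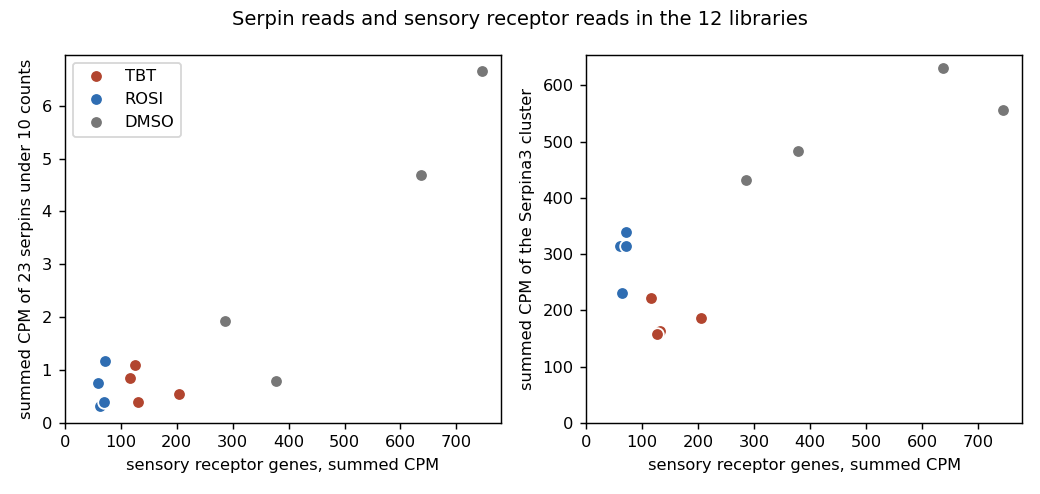
Each point is a library; the x axis is the summed CPM of sensory receptor genes, the y axis the summed CPM of the 23 serpins under 10 counts (left) or of the Serpina3 cluster (right). On the left the TBT and ROSI libraries stay at or below 1.16 CPM and the DMSO libraries run between 0.790 and 6.65 CPM; on the right the TBT libraries run between 158 and 222 CPM, the ROSI libraries between 231 and 339.6 CPM and the DMSO libraries between 431 and 631 CPM.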

How the data were processed

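Raw counts per gene symbol and log2 values (a regularized-log transform) were both deposited by the authors, each with 1 column per library. The submitters' processing notes name mm9 as the build, along with DESeq2, FastQC and SAMtools; no aligner, counter or annotation is given in the sources used here. Per the labels' protocols, the total RNA was freed of ribosomal RNA and read once over 50 nt on a SOLiD machine without strand, so reads of overlapping or antisense genes cannot be told apart.

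The tests used edgeR 4.0.16 in R 4.3.3: filterByExpr, TMM factors and 1 quasi-likelihood model over all 12 libraries without covariates, with Benjamini-Hochberg adjustment over 12323 genes at 0.05. Each SE is the absolute log2 fold change over the square root of F. Library totals were 4027152 to 7474654, and no pair of libraries within a group was a copy (lowest chi-square per degree of freedom 4.66). Exon lengths, transcripts and loop sequences came from GENCODE vM21 and promoters from RefSeq, both on GRCm38, used without coordinates of the files; loops were aligned with MAFFT 7.526. Intervals and floors cover counting error only.

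The members, gene lists and tests were chosen with earlier results of these data known. Named genes are all serpins with at least 10 counts and, of each list, up to 3 with the smallest p in each comparison with DMSO; 1 tested serpin and 1 listed gene are not reported here, though counts and sums include them. Alternatives were DESeq2 1.42.0, other scalings and filters, a replicate block, fits of only the groups compared, limma 3.58.1 on the deposited log2 values, each library left out and, chosen after seeing the data, GC-corrected offsets. Scripts were tested on simulated data.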

Additional observations from a re-analysis of the deposited data

Results flagged for a closer look

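Over 39 named serpins in 3 groups of 4 libraries, 17 of 117 groups held a library far from the other 3. Chance flags about 1 in 20 where values are normally distributed. A group with reads in only 1 library is always flagged, and most of these genes had a few counts, so that rate does not apply here. A single library held all reads of its group for Serpinb5 (0.259 CPM, ROSI replicate 3), Serpinb11 (0.401 CPM, ROSI replicate 4, and 0.536 CPM, TBT replicate 1), Serpinb2 (0.214 CPM, TBT replicate 3), Serpinb10 (0.388 CPM, ROSI replicate 3), Serpinb1b (0.386 CPM, TBT replicate 2), Serpinb9g (0.632 CPM, ROSI replicate 2) and Serpini2 (0.428 CPM, TBT replicate 3). In DMSO, 2 libraries stood high, Serpinb10 in replicate 1 (1.66 CPM) and Serpini2 in replicate 2 (1.17 CPM).

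Low libraries at higher counts were Serpina3m in ROSI replicate 2 (11.2 CPM, the others 19.4 to 20.1), Serpina3h in TBT replicate 2 (2.32 CPM, the others 4.06 to 4.13), Serpinf1 in ROSI replicate 4 (92.7 CPM, the others 139 to 146) and Serpinb8 in ROSI replicate 2 (9.95 CPM, the others 13.2 to 13.8). Serpinc1 was low in DMSO replicate 2 (0.936 CPM, the others 2.69 to 3.04), and Serpinb2 (0.158 CPM) and Serpinb9f (0.316 CPM) were low in DMSO replicate 4.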

How the results depend on the processing

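Of 29 calls over the 63 pairs of a tested serpin and a comparison, 22 held under every alternative that gave them a value (20 to 22 each), and of 34 pairs without a call 22 stayed without one; 0 reversed direction. In ROSI against DMSO, the 7 serpins called became 11 without a filter on low counts (61 serpins fitted) and 11 with limma on the deposited log2 values, and the cause of the second was not tested. Leaving out 1 library gave 8 to 13 calls in TBT against DMSO, 5 to 10 in ROSI against DMSO and 9 to 10 in TBT against ROSI. DESeq2 gave 12, 9 and 10, and GC-corrected offsets 10, 8 and 12. Over all genes, DESeq2 gave 2340, 3029 and 3263 calls, and GC-corrected offsets 1634, 2990 and 2680. Samples sharing a replicate number did not deviate together (12 correlations across genes, -0.432 to 0.138, and 3 of 24 best matches had the same number). No pairing by number was seen, but 4 libraries per group are too few to exclude one. With a replicate block the calls were 9, 5 and 9. Over all genes, TBT against DMSO had 1879 calls, 1160 with the replicate block and 1199 with only both groups fitted. When 1 library was left out it had 1019 to 4124, the highest without TBT replicate 4. TBT against ROSI had 2940 calls, 2154 with the replicate block and 1732 to 4826 with 1 library left out. For ROSI against DMSO these were 2787, 2289 and 2219 to 3537. A mean of at least 5 CPM left 15 serpins to test. Depth limits the members under about 10 counts, whose libraries often hold 0 or 1 read.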
